A study of Homo sapiens with 8 samples.

Results

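Free estradiol, the main natural estrogen, was given at 1e-06 M for 3 h to SKBR3 cells, a human breast cancer line with amplified HER2, and its array was set against the mean of an untreated array and an array of cells given the carrier protein BSA (bovine serum albumin) at 1e-06 M. These 3 arrays, of 8 in the series, were chosen by their titles, and each condition has 1 array. All cells, of every array, first spent 4 h in 10% serum stripped of steroids with charcoal. The other 5 arrays, used below only to place the same genes, were E2-BSA (estradiol coupled to BSA) at 1e-06 M, the GPER antagonist G15 at 1e-05 M, E2-BSA with G15, E2-BSA with the antagonist labelled ICI, each antagonist at 1e-05 M, and 0.1% ethanol. Ethanol is labelled the vehicle of estradiol, and neither the untreated nor the BSA label names it. The rule of this comparison leaves the ethanol array out of the reference, so an effect of estradiol and one of its solvent cannot be told apart in it. For that reason the ethanol value stands beside the main genes.

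The comparison asks which early transcripts differ when the hormone is free to enter the cell. Estradiol acts through the nuclear estrogen receptors, which bind DNA, and is also a ligand of GPER, a membrane receptor that can activate the EGF receptor and the MAPK cascade. SKBR3 cells are used in this field as a line that has GPER and lacks nuclear estrogen receptor alpha. The ID proteins, which recur below, are short-lived inhibitors of basic helix-loop-helix factors and classic immediate targets of BMP signalling, in which BMP ligands bind receptor kinases, the receptors phosphorylate SMAD proteins, and the SMADs switch on ID genes together with their own feedback inhibitors.

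The deposited values, 54675 probe sets on each array, were read as log2 values and are centred for each probe set, so that the level of a gene is removed and only its differences between arrays remain. The markers of the cell line (HER2, keratins, estrogen receptors) could therefore not be checked as levels. Among 19775 genes the difference between estradiol and its reference had an SD of 0.117, and BSA minus untreated had an SD of 0.166. The estradiol array held an exact 0 in 29.8% of the probe sets, the largest share of the 8 arrays, against 20.5% on the BSA array. No array has a replicate, so no difference below has an error of its own and none carries a p-value. BSA minus untreated stands in as the distance between arrays without hormone. In bulk RNA, fewer cells with a transcript and less of it per cell cannot be told apart.

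The ID genes led the differences between estradiol and its reference. A gene was called where it differed by at least 1.5-fold (0.58 on the log2 scale), lay on the same side of both reference arrays, and differed by more than these differed from each other. By this rule 14 genes were lower with estradiol (0.0708% of the genes) and 6 were higher (0.0303%). At these shares 0 called genes in a short list says little about that list. The 14 and 6 depend on the reference: against untreated alone 18 genes were called lower and 15 higher, and against BSA alone 37 lower and 20 higher. MIR3916, YPEL3-DT, GRHL3 and CYP1A1 were not called against untreated alone, and GPRASP3, C2CD4A, DKK1 and DUSP4 were not called against BSA alone. At 1.5-fold without the other conditions 15 genes were lower (0.0759%) and 7 higher (0.0354%). Only 3 genes were lower by 2-fold (0.0152%), ID1, ID2 and IFIT1, and 0 were higher by 2-fold. These counts are of genes averaged over their probe sets. Among the single probe sets with 1 gene, 35 were called higher and 42 lower, and 3 were higher and 8 lower by 2-fold. Called and higher by 2-fold were 1 probe set of SCD5 (1.46) and 1 of PHLDA1 (1.01), named after their values were seen. The other probe sets of SCD5 gave 0.18, 0.09 and 0.01. Of the 20 called genes, 16 rest on 1 probe set. Just inside the threshold lay GRHL3 at -0.61 and CYP1A1 at 0.59. Just outside it, named after their values were seen, lay CMPK2 at -0.56 and PPTC7 at 0.58. MIF-AS1 (-0.63) and INTU (0.69) passed 1.5-fold but not the rule, since BSA and untreated differed by 0.65 and -0.70 there.

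**Figure D1:**
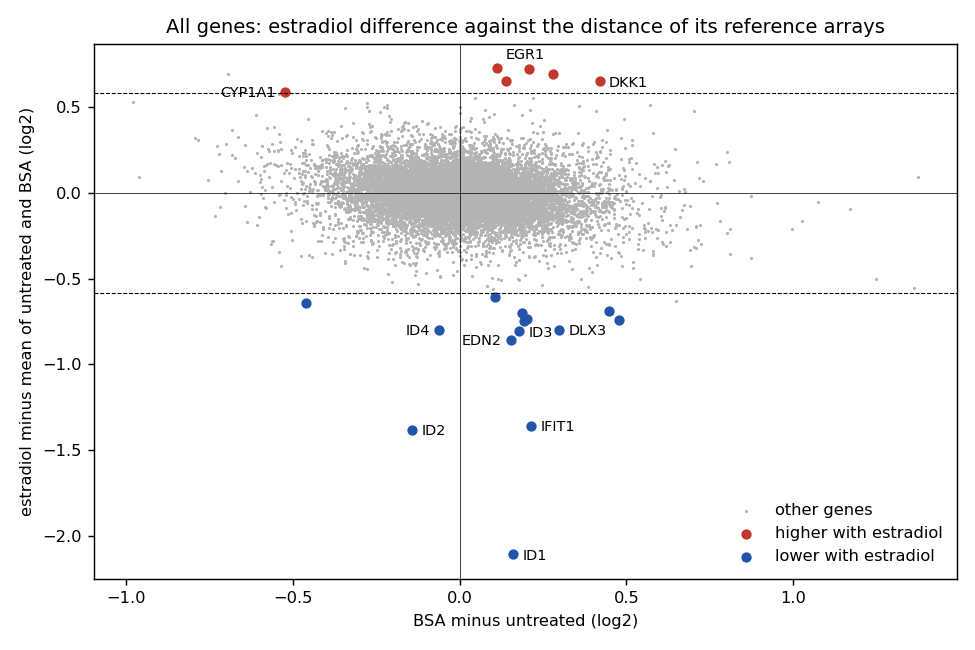
Each point is 1 gene: the vertical axis is estradiol minus the mean of the untreated and BSA arrays and the horizontal axis is BSA minus untreated, both log2, with dashed lines at 1.5-fold. Red points are the 6 genes called higher and blue points the 14 called lower; ID1 (-2.11), ID2 (-1.38) and IFIT1 (-1.36) lie far below all others.

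The sequences just upstream of 5 of these genes are shown because their families recur in the results. ID1 and ID3 stand for the ID genes, SMAD7 for SMAD feedback, IFIT1 for the interferon genes and EGR1 for the stimulus genes. Each is the 250 bases before the gene's start in RefSeq, build GRCh38.p14, written 5′ to 3′ on the gene's own strand. They lie at chr20:31605039-31605288 on the plus strand for ID1, chr1:23559502-23559751 on the minus strand for ID3, chr18:48950966-48951215 on the minus strand for SMAD7, chr10:89392373-89392622 on the plus strand for IFIT1 and chr5:138465229-138465478 on the plus strand for EGR1. Capitals mark the letters CAGAC, which SMAD4 can bind, in ID3 and SMAD7, the interferon-stimulated response element in IFIT1 and the CArG box, which serum response factor binds, in EGR1. ID1 held none of the SMAD motifs searched and has no capitals.
ID1: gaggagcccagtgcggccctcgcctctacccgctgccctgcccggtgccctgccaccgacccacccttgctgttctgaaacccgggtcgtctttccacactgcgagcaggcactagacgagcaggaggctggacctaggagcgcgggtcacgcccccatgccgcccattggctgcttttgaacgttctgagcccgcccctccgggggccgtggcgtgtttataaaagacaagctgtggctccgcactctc
ID3: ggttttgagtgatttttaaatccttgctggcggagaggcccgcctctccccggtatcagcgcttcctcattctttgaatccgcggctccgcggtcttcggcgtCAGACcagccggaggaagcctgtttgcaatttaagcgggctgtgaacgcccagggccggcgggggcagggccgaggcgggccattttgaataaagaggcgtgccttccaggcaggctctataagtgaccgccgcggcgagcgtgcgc
SMAD7: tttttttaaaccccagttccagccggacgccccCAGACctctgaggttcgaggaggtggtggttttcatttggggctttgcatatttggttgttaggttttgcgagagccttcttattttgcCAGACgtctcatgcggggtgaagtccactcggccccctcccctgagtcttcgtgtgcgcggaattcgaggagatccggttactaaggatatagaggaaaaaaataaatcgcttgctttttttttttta
IFIT1: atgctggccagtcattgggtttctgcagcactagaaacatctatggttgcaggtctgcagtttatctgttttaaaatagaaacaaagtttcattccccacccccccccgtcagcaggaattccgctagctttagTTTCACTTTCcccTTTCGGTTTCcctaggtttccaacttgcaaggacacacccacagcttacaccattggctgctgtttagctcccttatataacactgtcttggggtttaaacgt
EGR1: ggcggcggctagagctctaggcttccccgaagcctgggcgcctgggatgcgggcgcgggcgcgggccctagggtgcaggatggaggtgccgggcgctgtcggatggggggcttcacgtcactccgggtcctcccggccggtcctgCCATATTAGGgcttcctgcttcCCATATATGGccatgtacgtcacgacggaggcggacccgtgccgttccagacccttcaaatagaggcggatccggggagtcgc

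Motifs were searched on both strands of these upstream windows, of which 15 of the 20 called genes had 1 in the RefSeq table, 11 among the lower and 4 among the higher. The full estrogen response element was in 0 of the 15 and in 0.0399% of all 35114 windows. Its single arm AGGTCA, which can overlap the full element, was also in 0 of the 15, against 12.1% of all windows. GTCTG, the reverse complement of CAGAC, was in 5 of the 11 lower genes (IFIT1, ID3, ID4, SMAD7 and GPRASP3) and 2 of the 4 higher genes (DKK1 and EGR1), against 38.0% of all windows. GGCGCC was in EDN2, YPEL3-DT and EGR1 (16.4% of all windows) and GTCTAGAC in 0 of the 15 (0.182%). IFIT1 held the interferon-stimulated response element at 2 places and C2CD4A, 1 of the 4 higher genes, also held it, and 3.02% of all windows hold at least 1. EGR1 and CYP1A1 held a CArG box, CC and GG around 6 bases of A or T, against 1.16% of all windows. A match is a description of these letters, and no match says only that they are not in this window.

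All 4 ID genes, which block the partners of basic helix-loop-helix factors and hold back differentiation in many tissues, were called lower. ID1 read -2.02 with estradiol, against 0.01 on the untreated and 0.17 on the BSA array, a difference of -2.11 or 4.32-fold. ID2 read -1.24 with estradiol, against 0.22 untreated and 0.08 with BSA, a difference of -1.38. The gap was far larger than the distance between the reference arrays, which was 0.16 for ID1. ID3 read -0.72 with estradiol, against 0.00 untreated and 0.18 with BSA, a difference of -0.81. ID4 read -0.70 with estradiol, against 0.13 untreated and 0.06 with BSA, a difference of -0.80. The ethanol array did not share this: it lay between -0.34 (ID1) and 0.25 (ID4), and estradiol minus ethanol was -1.68 for ID1, -1.22 for ID2, -0.92 for ID3 and -0.95 for ID4.

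The probe sets of the ID genes that can be compared agreed in sign. Those of ID2 gave -1.28 and -1.49, and those of ID4 gave -1.46, -1.02, -0.95, -0.40 and -0.15. ID2 has a close copy in the genome, ID2B, and both its probe sets are of the types (_s_at and _x_at) that may read several transcripts, so the exact size for ID2 is uncertain. ID1 and ID3 each have 1 probe set, also of such a type.

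Outside the ID genes the listed SMAD feedback inhibitors and other SMAD targets, a list not restricted to BMP, lay mostly lower. Most BMP ligands and most BMP and TGF-beta receptors differed little. The ligands and their antagonists had a median difference of 0.02 over 20 measured genes, with BMP4 at -0.14, BMP7 at -0.08 and the antagonist NOG at 0.02. The BMP and TGF-beta receptors and SMADs had a median of 0.04 over 17 genes. Of these, 0 were called, where 0.0708% of all genes were called lower and 0.0303% higher. The signal-carrying SMAD1 (0.01) and SMAD5 (0.12), their common partner SMAD4 (0.04) and the type II receptor BMPR2 (0.11) lay near 0. SMAD9, the remaining SMAD that carries BMP signals, was the lowest of the list at -0.30 (named after its value was seen), and 1 of its probe sets met the rule by itself at -0.62. Among 22 feedback inhibitors and other SMAD targets, 14 lay below both reference arrays and 4 above both, where 28.4% and 27.4% of all genes did. Their median was -0.16, against -0.00 over all genes. This list, like the others, was chosen with earlier results of these data known. Such counts therefore describe the listed genes and are no test of the pathway.

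Called among them were DLX3 and SMAD7. SMAD7, the inhibitory SMAD that shuts receptors off, read -0.61 with estradiol, against -0.01 untreated and 0.18 with BSA, a difference of -0.70. DLX3, a homeobox factor of epithelial differentiation that BMPs induce, read -0.65 with estradiol, against 0.00 untreated and 0.30 with BSA, a difference of -0.80. SMAD6, the inhibitory SMAD more specific to BMP, was not called, at -0.31. Its 4 probe sets disagreed: 1 gave -0.92 and the others between -0.22 and 0.02. BAMBI, a decoy receptor, was at -0.35 and not called. DLX2 (-0.54) and DLX1 (-0.45), homeobox relatives named after their values were seen, each had 1 probe set well below the other, at -0.92 against -0.16 for DLX2 and -0.87 against -0.04 for DLX1. SKI, the co-repressor with the highest value of the list (0.38, also named after its value was seen), was set by the BSA array, which read -0.64 there while estradiol read 0.03 and untreated -0.06. The helix-loop-helix partners of the ID proteins did not move with them: 15 measured E-protein and related genes had a median of -0.03, with TCF3 at -0.07 and TCF4 at 0.06.

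**Figure D2:**
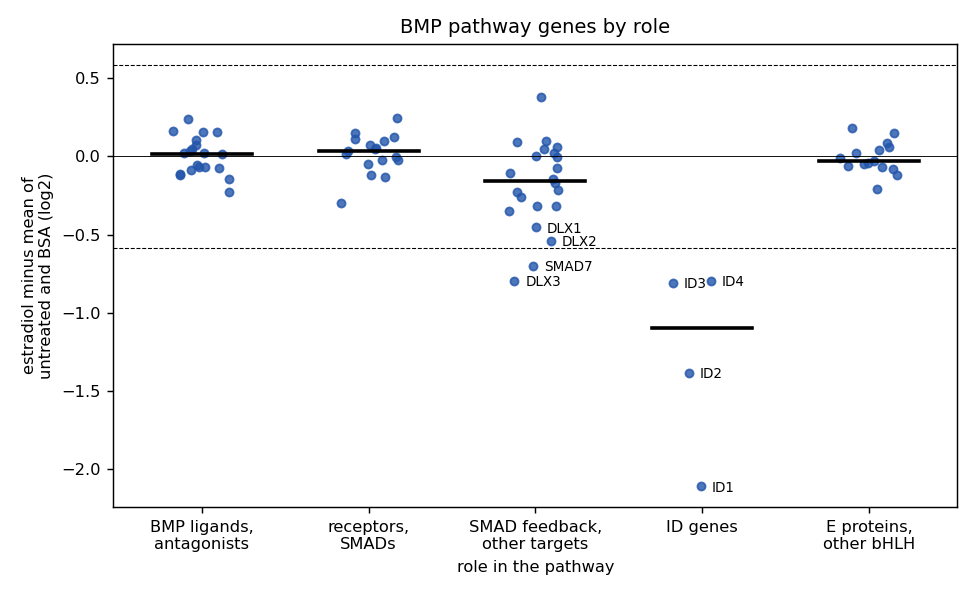
Each point is 1 gene, grouped by its role; the vertical axis is estradiol minus the mean of the untreated and BSA arrays (log2), black bars are medians and dashed lines mark 1.5-fold. The 4 ID genes have a median of -1.10, against 0.02 for BMP ligands and antagonists and 0.04 for BMP and TGF-beta receptors and SMADs.

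Apart from IFIT1, described below, the other 7 lower genes were of mixed function. CDKN1A, the cyclin-dependent kinase inhibitor p21, read -0.71 with estradiol, against -0.06 untreated and 0.13 with BSA, a difference of -0.75. With ethanol it read 1.26, so that estradiol minus ethanol was -1.97. The related inhibitor CDKN1B was at -0.12 and the p53 target GADD45A at 0.10, and neither was called. EDN2, which encodes a vasoconstrictor peptide, read -0.55 with estradiol, against 0.23 untreated and 0.38 with BSA, a difference of -0.86. HOXC13, a homeobox factor of hair and nail, read -0.70 with estradiol, against -0.07 untreated and 0.13 with BSA, a difference of -0.73. Both genes were chosen by the call rule and are given here as values. GRHL3, a transcription factor of epidermal differentiation, had a difference of -0.61, with -0.41 with estradiol, against 0.15 untreated and 0.25 with BSA.

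GPRASP3, YPEL3-DT and MIR3916 had wider gaps between the reference arrays, of -0.46, 0.45 and 0.48. Their differences were -0.64, -0.69 and -0.74, and each has 1 probe set. YPEL3-DT is a noncoding transcript, and MIR3916 is the gene of a microRNA whose mature form such a probe set does not measure. Against this distance they are the smallest of the lower calls. Estradiol minus ethanol stayed under 1.5-fold for EDN2 (-0.55), DLX3 (-0.52), GRHL3 (-0.42), GPRASP3 (-0.39) and YPEL3-DT (-0.19). The other 9 lower genes were still called against ethanol alone.

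IFIT1 was the third gene past 2-fold, and the other interferon-stimulated genes had smaller differences. IFIT1, an RNA-binding protein that blocks translation of viral RNA, read -1.25 with estradiol, against 0.00 untreated and 0.21 with BSA, a difference of -1.36. Ethanol read 0.15 for it and the hormone-free G15 array read -0.48. The relatives IFIT3 (-0.34), IFIT2 (-0.26) and IFIT5 (-0.05) lay below both reference arrays without being called. Of 38 other interferon-stimulated genes 19 lay below both reference arrays (50.0%) and 6 above both (15.8%), against 28.4% and 27.4% of all genes. Of the 38, 0 were called, where 0.0708% of all genes were called lower and 0.0303% higher. Their median was -0.14, and BSA minus untreated had a median of 0.15 in the same genes. Against untreated alone the median was -0.01, and against BSA alone it was -0.20. MX1, a GTPase that blocks viruses, read -0.25 with estradiol, against -0.17 untreated and 0.27 with BSA. OAS1, which makes the activator of RNase L, read -0.22 with estradiol, against 0.00 untreated and 0.18 with BSA.

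The 6 higher genes were smaller in size, between 0.59 and 0.73. EGR1, an immediate-early zinc-finger factor that MAPK signalling switches on, read 0.33 with estradiol, against -0.46 untreated and -0.35 with BSA, a difference of 0.73. Its 3 probe sets gave 0.61, 0.66 and 0.91. DUSP4, a phosphatase that inactivates MAP kinases and is itself induced by them, read 0.63 with estradiol, against -0.21 untreated and 0.07 with BSA, a difference of 0.70. Its 3 probe sets gave 0.66, 0.66 and 0.77, so EGR1 and DUSP4 are the higher calls that rest on several probe sets.

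CCL2, a chemokine that attracts monocytes, read 0.62 with estradiol, against -0.21 untreated and 0.00 with BSA, a difference of 0.72. C2CD4A, a gene induced by inflammatory cytokines, read 0.57 with estradiol, against -0.15 untreated and -0.01 with BSA, a difference of 0.65. DKK1, a secreted inhibitor of Wnt signalling, read 0.44 with estradiol, against -0.42 untreated and 0.00 with BSA, a difference of 0.65. CYP1A1, the hydroxylase that the aryl hydrocarbon receptor induces and that metabolizes estradiol, read 0.33 with estradiol, against 0.00 untreated and -0.53 with BSA. Its difference of 0.59 was only slightly larger than the distance between its reference arrays.

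The ethanol array divided these 6 genes. For EGR1 (1.38), CCL2 (3.21) and C2CD4A (1.91) ethanol stood above estradiol, and estradiol minus ethanol was -1.05 for EGR1, -2.59 for CCL2 and -1.34 for C2CD4A. For DUSP4 (-0.04), DKK1 (-1.08) and CYP1A1 (-0.36) ethanol stood below estradiol, and estradiol minus ethanol was 0.67 for DUSP4, 1.52 for DKK1 and 0.69 for CYP1A1. The higher call is thus the same against the labelled vehicle for these 3 genes, and the opposite for the other 3. On the remaining arrays CYP1A1 read 0.47 with G15, above its estradiol value, and DUSP4 read 0.70 and EGR1 0.56 with E2-BSA plus ICI.

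**Figure D3:**
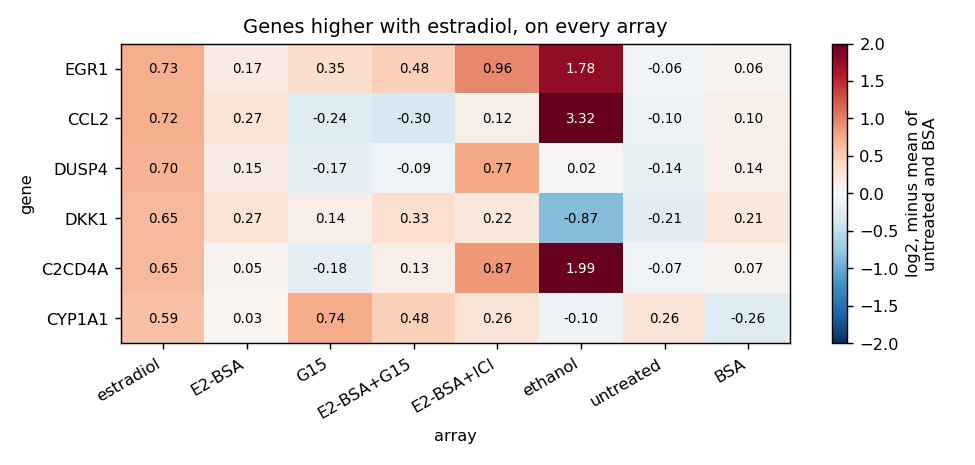
Rows are the 6 genes called higher and columns the 8 arrays; each cell gives the array's value minus the mean of the untreated and BSA arrays (log2), red for higher and blue for lower, with colours capped at 2. Ethanol stands above estradiol for CCL2, C2CD4A and EGR1 and below it for DUSP4, DKK1 and CYP1A1.

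Around EGR1 and DUSP4 the genes that MAPK signalling induces leaned upward by small amounts. Of 18 MAPK feedback inhibitors 13 lay above both reference arrays (72.2%) and 2 below both (11.1%), against 27.4% and 28.4% of all genes. The list median was 0.20. DUSP5, a nuclear phosphatase of ERK, read 0.41 with estradiol, against -0.10 untreated and 0.00 with BSA, and was not called (0.46). SPRY2, an inhibitor of receptor tyrosine kinase signalling, was at 0.34, DUSP6, a cytoplasmic phosphatase of ERK, at 0.30 and SPRY4 at 0.26. DUSP1, the phosphatase of stress kinases, was at -0.05, and its 3 probe sets disagreed, at 0.28, -0.27 and -0.16. The median of the list on the ethanol array was 0.26 against the same reference, and estradiol minus ethanol had a median of -0.03, so the lean is against the arrays without the vehicle.

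Of 19 EGR, NR4A and IER genes 12 lay above both reference arrays (63.2%) and 5 below both (26.3%), against 27.4% and 28.4% of all genes. The share below both was thus near that of all genes. The list median was 0.09, and MYC, the growth-promoting transcription factor, was at 0.40. The same list had a median of 0.48 on the ethanol array. Of 13 AP-1 factors 5 lay above both (38.5%) and 4 below both (30.8%), near the shares of all genes (27.4% and 28.4%). FOS read 0.35 with estradiol, against -0.32 untreated and -0.10 with BSA, and was just short of the threshold (0.56). FOSL1 was at 0.48, JUN at 0.15, FOSB at 0.06 and JUNB at -0.42. Of 15 genes linked to GPER in SKBR3 cells, some of which are also in the lists above, 9 lay above both and 3 below both, against 27.4% and 28.4% of all genes. Their median was 0.12, and estradiol minus ethanol had a median of -0.80 in them. CCN2, the matrix-associated growth factor known as a GPER target, was at 0.23 and HAS2, a hyaluronan synthase, at 0.22, and neither was called.

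**Figure D4:**
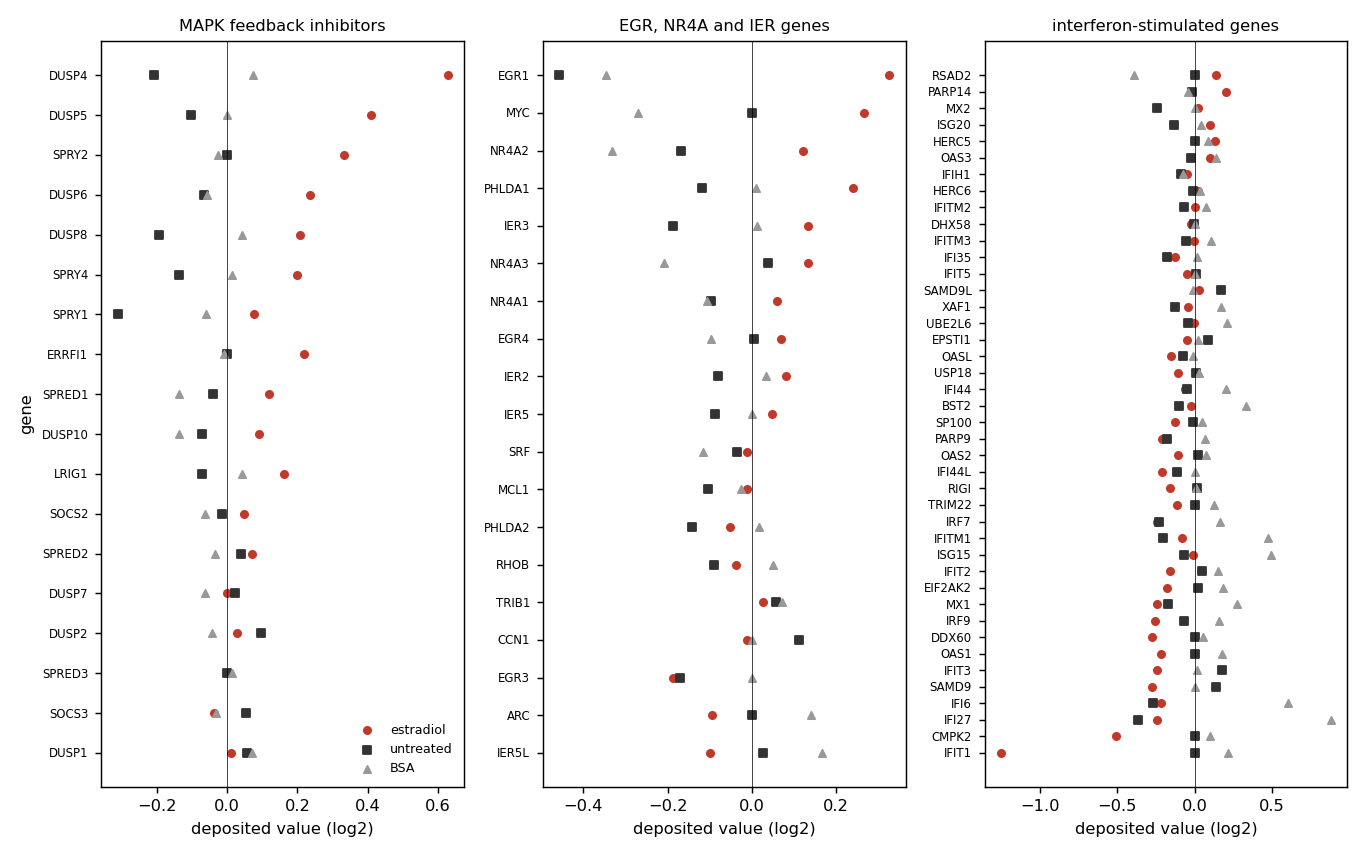
Deposited values (log2, centred for each probe set) of each listed gene on the estradiol (red circles), untreated (dark squares) and BSA (grey triangles) arrays, sorted by the difference. In the MAPK list 13 of 18 red circles lie right of both other marks, where 27.4% of all genes do. IFIT1 stands apart at the bottom of the interferon panel.

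Genes of the nuclear estrogen response showed no shared difference. Of 29 classic targets of estrogen receptor alpha 9 lay above both reference arrays (31.0%) and 5 below both (17.2%), against 27.4% and 28.4% of all genes. The median of these targets was -0.01. Of the 29, 0 were called, where 0.0708% of all genes were called lower and 0.0303% higher. TFF1, a secreted peptide and textbook estrogen target, read 0.16 with estradiol, against -0.30 untreated and 0.08 with BSA. GREB1 (-0.02), PGR (-0.10), MYB (-0.05) and CCND1 (0.06) lay near 0. The receptors themselves also lay near 0, with GPER1 at 0.03, ESR1 at -0.03 and ESR2 at -0.09. Among 27 genes of steroid and aryl hydrocarbon metabolism CYP1A1 was the only call. CYP1B1, which also hydroxylates estradiol, was at 0.26, with 0.06 with estradiol, against -0.00 untreated and -0.39 with BSA.

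Inflammatory and cell cycle genes had small median differences. Of 22 inflammatory genes that NF-kB controls, 11 lay above both reference arrays (50.0%) and 3 below both (13.6%), against 27.4% and 28.4% of all genes. CCL2 alone of the 22 was called and their median was 0.05, while on the ethanol array they had a median of 2.06. CXCL8, a neutrophil chemokine, read 0.00 with estradiol, against -0.12 untreated and 0.01 with BSA, and 7.21 with ethanol. Of 40 G2/M genes 16 lay below both reference arrays (40.0%) and 1 above both (2.5%), against 28.4% and 27.4% of all genes. The G2/M median was -0.06, with -0.15 against untreated alone and 0.04 against BSA alone. In these genes BSA minus untreated had a median of -0.16, and the kinase PLK1 was at -0.35 with a BSA value of 0.32. The 30 G1/S and replication genes had a median of -0.01. In the HER2 amplicon list of 12 genes, 6 lay below both reference arrays (50.0%) and 2 above both (16.7%), against 28.4% and 27.4% of all genes. The list median was -0.02 against untreated alone and -0.09 against BSA alone. Of the 12, 0 were called, where 0.0708% of all genes were called lower and 0.0303% higher. ERBB2 was at -0.15. The ERBB2 value came from 1 probe set at -0.45, where BSA minus untreated was 0.31. The other ERBB2 probe sets were both at -0.00. Of 17 luminal and apocrine genes HOXC13 alone was called. The 12 markers of other cell types (basal, immune, endothelial and stromal) lay between -0.13 (KRT5) and 0.28 (KRT14). Of them 0 were called, beside the same small shares over all genes.

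Set beside the other arrays, estradiol gave the fewest called genes in total, 20, by the same rule and against the mean of the same 2 reference arrays. E2-BSA had 12 genes higher (0.0607%) and 41 lower (0.207%), and E2-BSA plus G15 had 15 higher (0.0759%) and 28 lower (0.142%). E2-BSA plus ICI had 52 higher (0.263%) and 41 lower (0.207%), and ethanol had 625 higher (3.16%) and 105 lower (0.531%). The antagonist G15 without hormone gave 20 higher (0.101%) and 10 lower (0.0506%), which is more higher and fewer lower genes than estradiol had, so the number of calls alone does not set estradiol apart from an array without hormone. All these differences share their reference arrays.

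Most of the 14 genes lower with estradiol were near the reference on the E2-BSA array and low again when G15 or ICI was present with E2-BSA. These 14 were chosen for their low value on the estradiol array, so a low value relative to other arrays follows in part from that choice. Of them, 11 were lower by at least 1.5-fold on the estradiol array than on the E2-BSA array, and the difference lay between -2.06 (ID1) and 0.00 (YPEL3-DT). On E2-BSA alone ID1 read 0.04, on E2-BSA plus G15 -1.70 and on E2-BSA plus ICI -1.93. ID2 read 0.00 on E2-BSA, -0.58 with G15 added and -1.22 with ICI added. Against the shared reference, 10 of the 14 were lower by 1.5-fold on E2-BSA plus ICI and 10 on E2-BSA plus G15. The medians there were -0.73 and -0.70. On E2-BSA 1 was lower by 1.5-fold, on G15 alone 0 and on ethanol 0. YPEL3-DT went another way, at -0.69 on E2-BSA, 0.45 with ICI added and -0.01 with G15 added. MIR3916 (-0.36 with ICI, -0.17 with G15) and GPRASP3 (-0.30 and -0.16) were less low there.

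**Figure D5:**
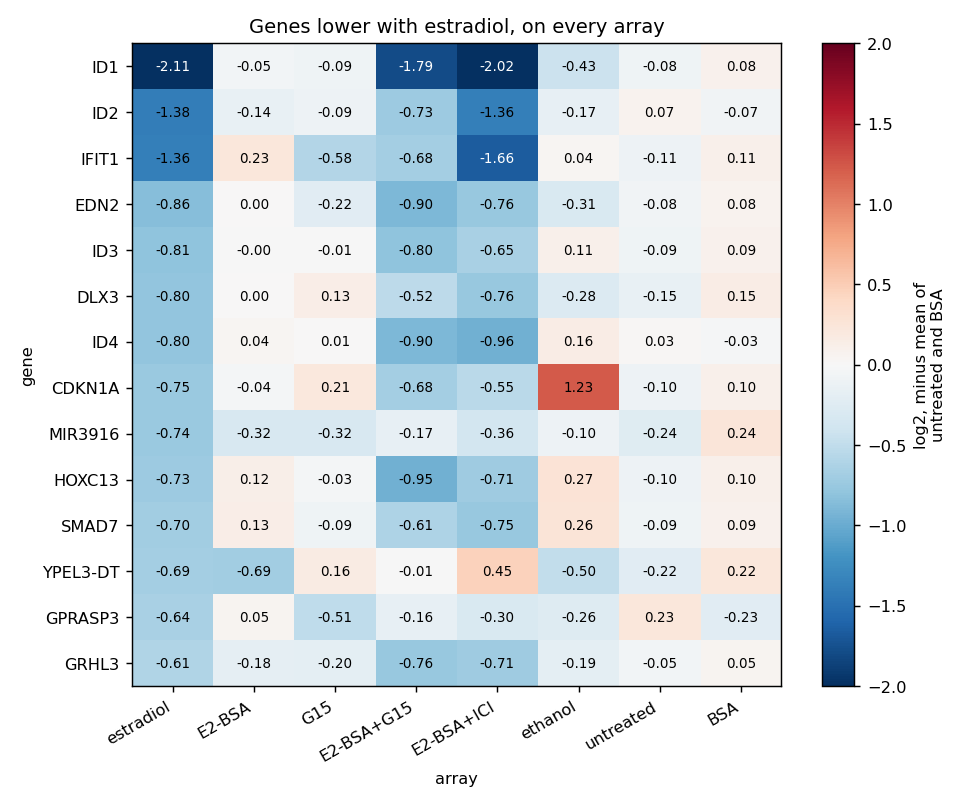
Rows are the 14 genes called lower and columns the 8 arrays; each cell gives the array's value minus the mean of the untreated and BSA arrays (log2), blue for lower and red for higher, with colours capped at 2. The estradiol, E2-BSA plus G15 and E2-BSA plus ICI columns are blue for the ID genes, and the E2-BSA and G15 columns are near 0 for them.

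The doses of free and coupled estradiol are both 1e-06 M by the labels, and each form has 1 array, so no error can be put on their differences. Across all genes estradiol minus E2-BSA was at least 1.5-fold for 54 higher genes (0.273%) and 22 lower genes (0.111%). By 2-fold it was lower for ID1, IFIT1 (-1.59) and ID2 (-1.24) and higher for 0 genes. The 6 genes higher with estradiol lay above E2-BSA by 0.38 to 0.60, and 1 of them, C2CD4A, by 1.5-fold.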

How the data were processed

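RNA from 8 cultures, 1 per condition, was labelled with biotin and hybridized to Affymetrix arrays, per the labels' protocols. The deposited values, 54675 probe sets on each array, were made by the authors and were read here as log2. How probes were summarized and arrays normalized, and the base of the logarithm, are not given in the sources used; base e is not excluded, and folds would then be larger. No probe set has more than 4 arrays on either side of 0, as in values centred per probe set, and 48.3% of them hold an exact 0 more than once. Levels are lost, so no filter on low values was possible. Of the probe sets, 41091 have 1 gene in the platform annotation, 1801 several, 11721 none, and 62 are controls; 41037 matched a current gene record. Probe sets with 1 gene were averaged, giving 19775 genes (Python 3.11.15, pandas 2.3.3). The number of arrays limits the precision.

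Members and the 37 gene lists (622 of 672 genes measured) were chosen with earlier results of these data known. Named genes are up to 20 called each way, list members that were called and preset key members; others are marked where they appear. Alternatives were other reference arrays, normalizations and probe set rules, and limma 3.58.1 (R 4.3.3) with the reference arrays as 1 group. On simulated data limma recovered 200 of 200 genes changed by 2 on the log2 scale among 19775. ID1 alone exceeded that size in the data. The simulation shuffled values across genes on each array, which removes each gene's own spread. Its recovery therefore does not show what limma could find in these data. Promoter sequences are from RefSeq.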

Additional observations from a re-analysis of the deposited data

Results flagged for a closer look

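Of 11721 probe sets without a gene name in the annotation used here, 4 stood higher with estradiol by at least 2-fold. Among 41091 probe sets with 1 gene, 3 did. The 4 were found by looking through the probe sets that the comparison of genes does not use. Their values are given with no name. Probe set 1558048_x_at read 6.32 with estradiol, against -0.30 untreated and -0.08 with BSA, a difference of 6.51 on the log2 scale. The other arrays lay between -0.17 (G15) and 0.55 (E2-BSA plus G15). Probe set 234675_x_at was higher by 2.38. The remaining ones were 224549_x_at, higher by 1.98, and 243489_at, higher by 1.09. All but 243489_at are of the _x_at type, which may read several transcripts. Each estradiol value comes from 1 array, and whether a defect of that array raised it was not tested.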

How the results depend on the processing

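Leaving out 1 of the reference arrays gave 15 to 20 called genes higher and 18 to 37 lower, 17 to 27 higher and 18 to 57 lower at 1.5-fold, and 0 to 2 higher and 3 to 5 lower at 2-fold. The low ends are against untreated alone and the high ends against BSA alone. Against ethanol alone 112 genes were called higher and 560 lower, with 112 and 561 at 1.5-fold and 2 and 171 at 2-fold; EGR1 (-1.05), CCL2 (-2.59) and C2CD4A (-1.34) changed direction. With ethanol added to the reference 3 genes were called higher, 4 were higher and 59 lower at 1.5-fold, and 13 lower at 2-fold; CCL2 (-0.38) and C2CD4A (-0.013) changed direction. Quantile normalization gave 11 higher and 29 lower genes, both called and at 1.5-fold. The probe set with the largest SD gave 26 and 34 called genes, 35 and 41 at 1.5-fold and 3 and 5 at 2-fold, and without probe sets that may match several transcripts 1 gene was lower at 2-fold, since ID1, ID2, ID3, CDKN1A, HOXC13, CCL2 and EGR1 then have no probe set. limma took untreated and BSA, which are different conditions, as 1 group beside the single estradiol array. With 1 residual degree of freedom its error rests on the distance between those conditions, so its p-values are not given. It called no gene either way. Apart from the removal of probe sets, the cause of the shifts between settings was not tested. All 14 lower genes kept their direction in every setting that measured them. Every setting uses the same estradiol array, and the call rule requires a value below both reference arrays. Against those 2 arrays the direction was therefore fixed by the choice of the genes. Against ethanol alone 9 of the 14 were still called, not EDN2, DLX3, YPEL3-DT, GPRASP3 and GRHL3. Against untreated alone 11 of the 14 lower and 5 of the 6 higher genes were still called, and against BSA alone 13 and 3. A reference of E2-BSA and G15, chosen after seeing the data, gave 5 genes higher and 17 lower. No paired analysis was possible because each condition has 1 array.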

Other observations

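Single genes of other lists had differences that were not called. PFKFB3, which makes the activator of glycolysis, read -0.55 with estradiol, against -0.10 untreated and 0.00 with BSA, and it read 1.28 with ethanol. DDIT4, an inhibitor of mTOR signalling named after its value was seen, read -0.42 with estradiol, against 0.10 untreated and 0.00 with BSA. The long noncoding RNA MALAT1 was at -0.56, which the BSA array set: it read -0.19 with estradiol, against -0.32 untreated and 1.04 with BSA.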
